A study of Rattus norvegicus with 6 samples.

Results

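The 10 genes described here are p53 target genes: Mdm2, Bax, Ccng1, Sesn1, Plk2, Plk3, Gadd45a, Btg2, Phlda3 and Ddb2. They were taken by symbol from the count table, where all 10 were found among 18718 gene rows, and their levels were compared between cells treated with an siRNA against Hnrnpd (siHNRNPD) and cells treated with a control siRNA (siCtrl). The set was chosen by earlier values of the same contrast, siHNRNPD against siCtrl, in which Plk2 and Plk3 pointed in opposite directions, so the difference between the groups is given for all 10 genes as a description, with no p-value, and the counts of calls given further on are read as no evidence. Total RNA was sequenced from 3 siHNRNPD libraries and 3 siCtrl libraries of HEI-OC1, an established auditory line made from organ of Corti tissue, the sensory epithelium of the inner ear. The product of Hnrnpd is AUF1, which recognises AU-rich stretches of transcripts and affects their stability. All libraries share the culture conditions of 37 °C and 5% CO2 in medium with 10% serum, and no DNA-damaging agent is named in the labels. Nothing in the labels says that replicates are separate cultures, and p-values then reflect only how these libraries vary, possibly for technical reasons.

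p53 is a transcription factor that is held at a low level by the ubiquitin ligase Mdm2 and accumulates after DNA damage and other stresses. It binds a paired decamer in DNA and raises transcription of genes that stop the cell cycle, repair DNA, restrain growth signalling or start apoptosis, and Mdm2 itself is one of these genes, which closes a feedback loop. In the inner ear p53 is known chiefly for its part in the death of hair cells after cisplatin or aminoglycosides. HEI-OC1 is commonly described as murine and as carrying a conditional large T antigen, a viral protein that binds p53, whereas the labels give the organism as rat. Reads were not checked for their species, which limits any ranking of genes by level.

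The Hnrnpd row, listed as Hnrpd, had 177, 200 and 183 CPM (read counts scaled to library size after TMM) in siHNRNPD 1 to 3, against 319, 303 and 269 CPM in siCtrl 1 to 3. By edgeR's quasi-likelihood test this was a log2 change of -0.67 (SE 0.082, Benjamini-Hochberg adjusted p = 0.0426), and 8 of 16 alternatives ended this call: the replicate block (adjusted p = 0.0873), limma on log2(FPKM + 1) with and without a filter (0.0508 and 0.137), and leaving out siHNRNPD 1 or 3 or any siCtrl library (0.0508 to 0.319). The libraries held 28984535 to 35842904 gene counts. Of 11 listed hair cell markers 8 had a row and 3 passed the filter on low counts. These were Myo6 (1101 to 1225 counts per library), Myo7a (2 to 18) and Ocm, listed as Ocm2 (8 to 24). Gfi1, Slc26a5, Otof, Espn and Calb2 had 0 to 7 and did not pass. Of 10 supporting cell markers 4 passed the filter on low counts, from Fgfr3 (64 to 117 counts) to Cdkn1b (2014 to 2533). Prox1 (0 to 2 counts) and Lgr5 (2 to 10) did not pass the filter, and Sox2, Gjb2, Gjb6 and Hes5 had no row. Of 10 fibroblast and mesenchymal markers 8 passed it, from Col1a2 (94 to 131 counts) to Vim (113968 to 146691), while Dcn and Postn had 2 to 10. Of 8 immune markers 3 passed it, Cd68 (72 to 93 counts), Aif1 (15 to 42) and Lyz2 (8 to 17), while Ptprc, Csf1r, Cd3e and Itgam had 0 to 4. Library siHNRNPD 3 stood apart in 20 interferon-stimulated genes, whose mean log2 CPM lay -2.07 from the siCtrl mean there, against -0.63 and -0.48 in siHNRNPD 1 and 2 and -0.14 to 0.21 in the siCtrl libraries.

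Promoter sequences, 250 bases before to 50 bases after the annotated start, were found in RefSeq's rat assembly GRCr8 for 8 of the 10 genes, Bax and Ddb2 having no entry in the table used. Those of Plk2 and Plk3 are shown because these paralogs differed in opposite directions, and that of Gadd45a because it was the member that varied most between siHNRNPD libraries. Capitals mark a match to the p53 consensus decamer (Gadd45a) or the cyclic AMP response element TGACGTCA (Plk2), the second of which was added after the sequences were seen. The promoters lie at chr2:43702286-43702585 on the plus strand (Plk2), chr5:135848851-135849150 on the minus strand (Plk3) and chr4:97486750-97487049 on the minus strand (Gadd45a).
Plk2: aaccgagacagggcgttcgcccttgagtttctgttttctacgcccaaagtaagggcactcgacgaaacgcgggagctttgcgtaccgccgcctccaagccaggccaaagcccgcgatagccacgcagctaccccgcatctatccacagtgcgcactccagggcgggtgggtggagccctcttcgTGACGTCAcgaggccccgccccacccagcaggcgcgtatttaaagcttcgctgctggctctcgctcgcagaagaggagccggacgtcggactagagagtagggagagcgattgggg
Plk3: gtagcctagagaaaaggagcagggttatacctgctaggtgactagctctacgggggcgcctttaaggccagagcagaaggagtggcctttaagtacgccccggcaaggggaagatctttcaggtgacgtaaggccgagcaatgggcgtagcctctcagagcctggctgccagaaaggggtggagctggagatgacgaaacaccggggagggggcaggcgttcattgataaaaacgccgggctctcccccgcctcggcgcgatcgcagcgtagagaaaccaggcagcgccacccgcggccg
Gadd45a: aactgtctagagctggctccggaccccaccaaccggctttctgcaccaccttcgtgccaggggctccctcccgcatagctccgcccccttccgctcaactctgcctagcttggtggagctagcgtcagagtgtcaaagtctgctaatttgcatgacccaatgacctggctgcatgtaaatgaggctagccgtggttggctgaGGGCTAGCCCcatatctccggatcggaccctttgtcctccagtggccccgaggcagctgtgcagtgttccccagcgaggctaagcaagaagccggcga

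The search, on both strands, was for a single p53 consensus decamer, not the pair that p53 binds. Such a decamer was found in 3 of the 8 promoters, against 2671 of all 33469 promoters in the table, or 7.98%. The matches were GGGCTAGCCC at -48 in Gadd45a, GGGCAAGCCT at -232 in Ccng1 and AAGCTTGTTT at -172 in Sesn1, counted from the first base of the match to the start. The Plk2 and Plk3 windows held no such letters. TGACGTCA was found at -66 in Plk2 and at -201 in Btg2, while 1.83% of all promoters held it. Because this string was chosen after the sequences were seen, nothing is read from that share. The Plk3 window holds TGACGTAA, which differs only in the next-to-last letter, and such near matches were not counted. The 8 windows held 56.7% (Ccng1) to 72.3% (Phlda3) G and C, with a median of 64.5%, and the median over all promoters was 51.7%. A match describes these rat windows and does not show a binding site in these cells. A window without a match does not show that the gene lacks p53 sites elsewhere.

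Bax was the most abundant of the 10 genes per unit length and Ddb2 the least. By the authors' FPKM, which are scaled to gene length, Bax averaged 73.1 ± 3.58 in siHNRNPD and 60.6 ± 7.14 in siCtrl (SD, n = 3 each). Phlda3 followed with 46.9 ± 2.52 FPKM in siHNRNPD and 40.5 ± 6.33 FPKM in siCtrl, then Gadd45a with 26.3 ± 9.16 FPKM in siHNRNPD and 20.5 ± 0.55 FPKM in siCtrl (SD, n = 3 each). Mdm2, Plk3 and Ccng1 formed the middle of the order, at 9.17 to 14.27 FPKM in siHNRNPD libraries and 8.78 to 13.29 FPKM in siCtrl libraries. Sesn1, Plk2, Btg2 and Ddb2 came last, and Ddb2 averaged 0.39 ± 0.067 FPKM in siHNRNPD and 0.43 ± 0.11 FPKM in siCtrl (SD, n = 3 each). The order was the same in both groups except that Plk3 stood above Ccng1 in siHNRNPD and below it in siCtrl. Neighbours in the order had separate ranges, other than Mdm2 and Plk3 in siHNRNPD and Ccng1 and Plk3 in siCtrl, whose ranges overlapped.

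**Figure D1:**
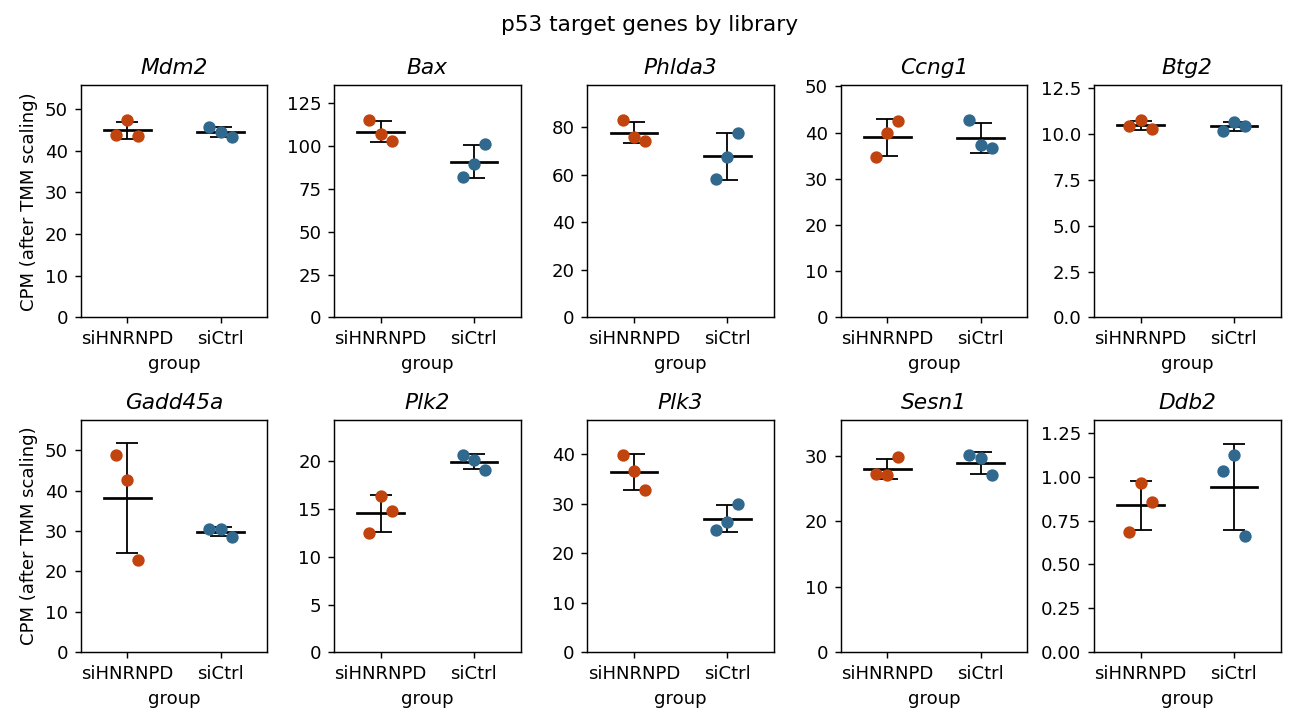
Level of each p53 target gene in CPM after TMM scaling (vertical axis, starting at 0), with 1 point per library, siHNRNPD left and siCtrl right, and the mean ± SD over 3 libraries in black. Plk3 and Bax lie higher and Plk2 lower in all 3 siHNRNPD libraries than in any siCtrl library, and the groups overlap in the other 7 genes. Over all tested genes, the groups do not overlap in 17.0%.

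The polo-like kinases Plk2 and Plk3 differed in opposite directions. Plk2, a kinase that acts in centriole duplication and in synapses, had 439, 542 and 482 counts in siHNRNPD 1 to 3, against 599, 628 and 691 counts in siCtrl 1 to 3. After scaling these were 12.5, 16.4 and 14.8 CPM in siHNRNPD, against 20.7, 20.1 and 19.1 CPM in siCtrl. All siHNRNPD libraries lay below all siCtrl libraries, and the siHNRNPD mean was 72.9% of the siCtrl mean, a log2 change of -0.46 with an SE of 0.11. Plk3, a stress-responsive kinase linked to checkpoint signalling and to p53 phosphorylation, had 1392, 1214 and 1067 counts in siHNRNPD 1 to 3, against 716, 820 and 1080 counts in siCtrl 1 to 3. In CPM these were 39.8, 36.6 and 32.7 in siHNRNPD, against 24.7, 26.3 and 29.9 in siCtrl. Here all siHNRNPD libraries lay above all siCtrl libraries, with a mean of 135% of siCtrl and a log2 change of 0.43 with an SE of 0.099.

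Set against each other within a library, Plk3 had 3.69, 2.61 and 2.58 times the FPKM of Plk2 in siHNRNPD 1 to 3, against 1.39, 1.52 and 1.82 times in siCtrl 1 to 3. Since Plk3 was higher and Plk2 lower in every siHNRNPD library, the separation of these ratios follows from the values above and adds nothing to them. The sum of both kinases was 18.1, 18.0 and 16.6 FPKM in siHNRNPD, against 15.1, 15.3 and 16.8 FPKM in siCtrl, and the groups overlapped in that sum. By edgeR neither Plk2 nor Plk3 was called, nor the other polo-like kinases with tested rows, against 0.0815% of all tested genes. DESeq2, another count test, called Plk3 higher and Plk2 lower, against 1.41% of the genes it tested. For Plk2 and Plk3 nothing is read from these calls. Plk1, which drives mitotic entry, had 209 ± 10.1 CPM in siHNRNPD and 201 ± 9.44 CPM in siCtrl (SD, n = 3 each; edgeR adjusted p = 0.788). Plk4, the kinase that starts centriole duplication, had 40.4 ± 4.53 CPM in siHNRNPD and 38.7 ± 2.99 CPM in siCtrl (SD, n = 3 each; edgeR adjusted p = 0.844), and its log2 change of 0.064 was -0.031 without siHNRNPD 3. Whether the kinases differ from each other in their change was not tested.

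Genes whose levels followed Plk2 and Plk3 most closely over the 6 libraries were sought among 9175 genes that averaged 5 CPM or more. For Plk2 these were Ccdc104, Rabgap1 and Trmt1l (Pearson r of log2 CPM = 0.996, 0.994 and 0.991, n = 6 libraries). Their log2 changes of -0.10, -0.19 and -0.18 were smaller than that of Plk2. For Plk3 they were RGD1307155, Kdm8 and Prrc1 (Pearson r = 0.997, 0.996 and 0.990, n = 6 libraries), with log2 changes of 0.32, 0.27 and 0.40. These correlations are descriptions chosen as the highest of many, over libraries that fall into 2 groups, and Plk3, RGD1307155, Kdm8 and Prrc1 also rank with library depth within each group. None of the 6 genes passed the adjustment over all genes (edgeR adjusted p from 0.155 to 0.561).

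**Figure D2:**
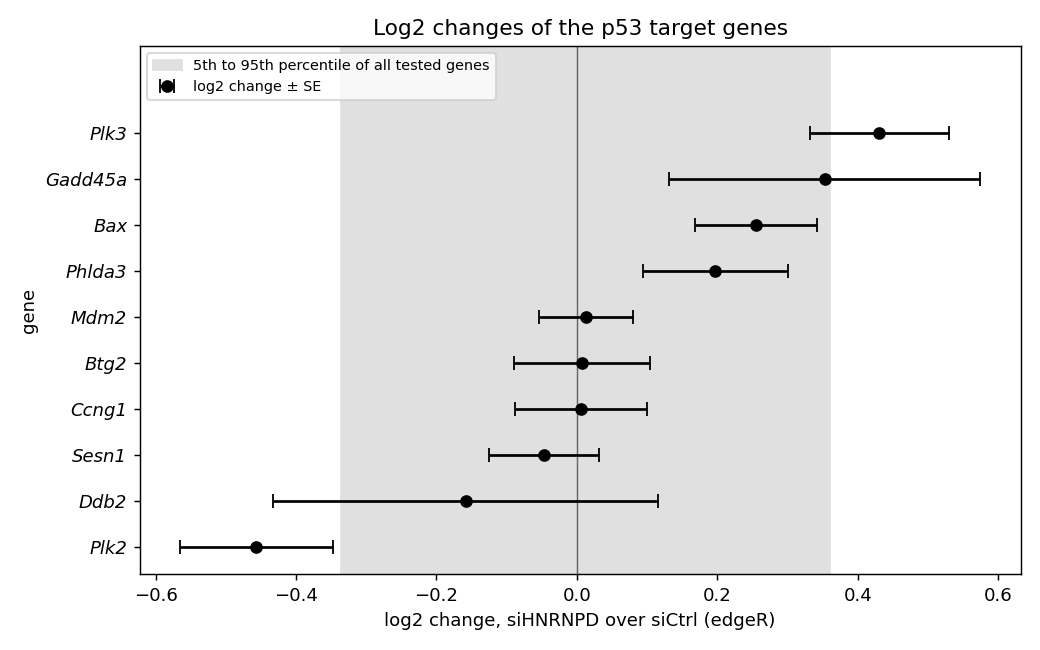
Log2 change of each p53 target gene, siHNRNPD over siCtrl, from edgeR (horizontal axis), with bars of ± 1 SE and grey marking the 5th to 95th percentile of all 12268 tested genes. Plk3 (0.43) and Plk2 (-0.46) lie outside the grey band of -0.34 to 0.36, and Mdm2, Btg2, Ccng1 and Sesn1 lie near 0.

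Of the genes that act in apoptosis and survival signalling, Bax was higher in siHNRNPD and Phlda3 overlapped between the groups. Bax, which forms pores in the outer mitochondrial membrane, had 4024, 3547 and 3368 counts in siHNRNPD 1 to 3, against 2377, 2790 and 3651 counts in siCtrl 1 to 3. In CPM these were 115, 107 and 103 in siHNRNPD, against 81.9, 89.5 and 101 in siCtrl. The lowest siHNRNPD library stood just above siCtrl 3, for a log2 change of 0.25 (SE 0.087). Phlda3, a small protein that restrains Akt at the membrane, had 82.7, 75.9 and 74.1 CPM in siHNRNPD, against 57.9, 67.3 and 77.6 CPM in siCtrl. Library siCtrl 3 lay above siHNRNPD 2 and 3, for a log2 change of 0.20 (SE 0.10), which was 0.087 without siCtrl 1 and 0.31 without siCtrl 3.

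Within each group, the CPM of Bax, Phlda3 and Plk3 had the same order as library depth. The siHNRNPD libraries held 35534620, 33329136 and 31735235 counts in replicates 1 to 3, and the siCtrl libraries 28984535, 31787216 and 35842904 counts. This order in both groups was found in 854 of 12268 tested genes, or 6.96%, and the reverse order in 704 genes, or 5.74%, Ccng1 among them. Between libraries of nearly equal depth, Plk3 had 32.7 CPM in siHNRNPD 3 against 26.3 CPM in siCtrl 2, and 39.8 CPM in siHNRNPD 1 against 29.9 CPM in siCtrl 3. Bax had 103 CPM in siHNRNPD 3 against 89.5 CPM in siCtrl 2, and 115 CPM in siHNRNPD 1 against 101 CPM in siCtrl 3. With the log2 total count as a covariate, an alternative added after the data were seen, the log2 changes were 0.37 (SE 0.063) for Plk3, 0.20 (SE 0.053) for Bax, 0.13 (SE 0.056) for Phlda3 and -0.42 (SE 0.10) for Plk2. Each comparison at nearly equal depth sets 1 library against 1, and whether depth accounts for the differences was not tested.

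**Figure D3:**
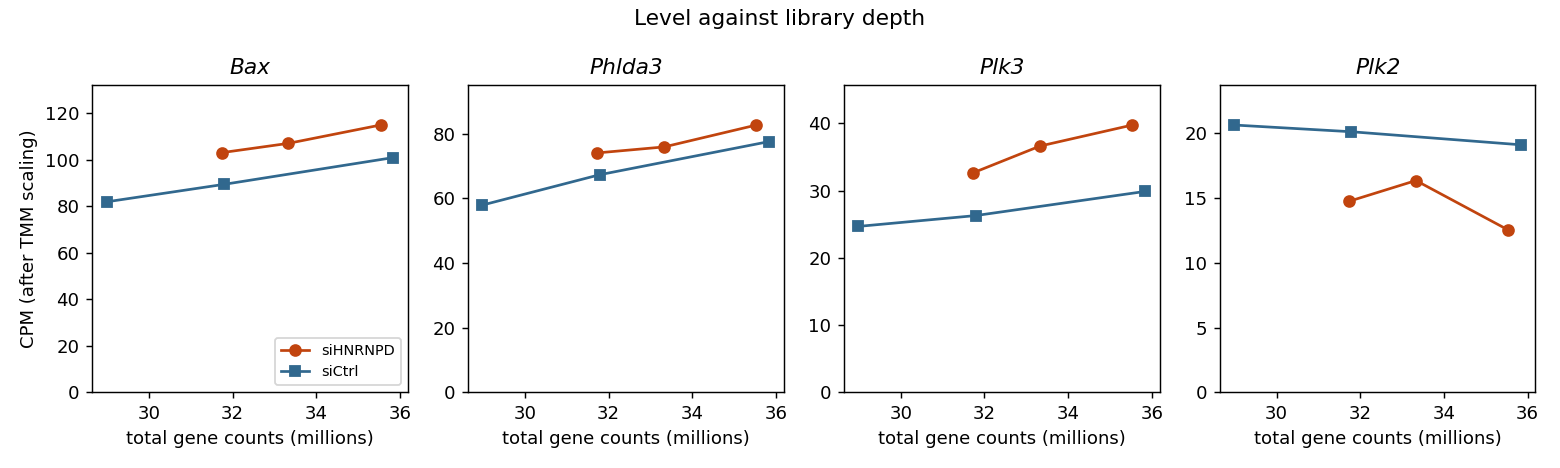
CPM after TMM scaling (vertical axis, starting at 0) against the total gene counts of the library (horizontal axis) for Bax, Phlda3, Plk3 and Plk2, with lines joining the 3 libraries of a group. At similar depth the siHNRNPD points lie above the siCtrl points in Bax, Phlda3 and Plk3 and below them in Plk2. Whether depth accounts for the differences was not tested.

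Gadd45a, which binds PCNA and stress kinases and whose mRNA is a known AUF1 target in human cells, split the siHNRNPD libraries. It had 1706, 1415 and 742 counts in siHNRNPD 1 to 3, against 887, 949 and 1029 counts in siCtrl 1 to 3. In CPM these were 48.8, 42.7 and 22.7 in siHNRNPD, against 30.6, 30.4 and 28.5 in siCtrl. Libraries siHNRNPD 1 and 2 lay above all siCtrl libraries and siHNRNPD 3 below all of them. Over all libraries the log2 change came to 0.35 with an SE of 0.22, and to 0.61 with an SE of 0.089 without siHNRNPD 3, the library with the lowest interferon-stimulated genes. Without siHNRNPD 1 it was 0.13. Whether Gadd45a moves with the interferon-stimulated genes was not tested. Its within-group SD of log2 CPM, 0.42, was the highest of the 10 genes, against a median of 0.13 over all tested genes. Its paralog Gadd45g, another stress sensor of the family, had 19.9, 17.2 and 20.2 CPM in siHNRNPD, against 14.0, 17.1 and 17.5 CPM in siCtrl (edgeR adjusted p = 0.475).

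**Figure D4:**
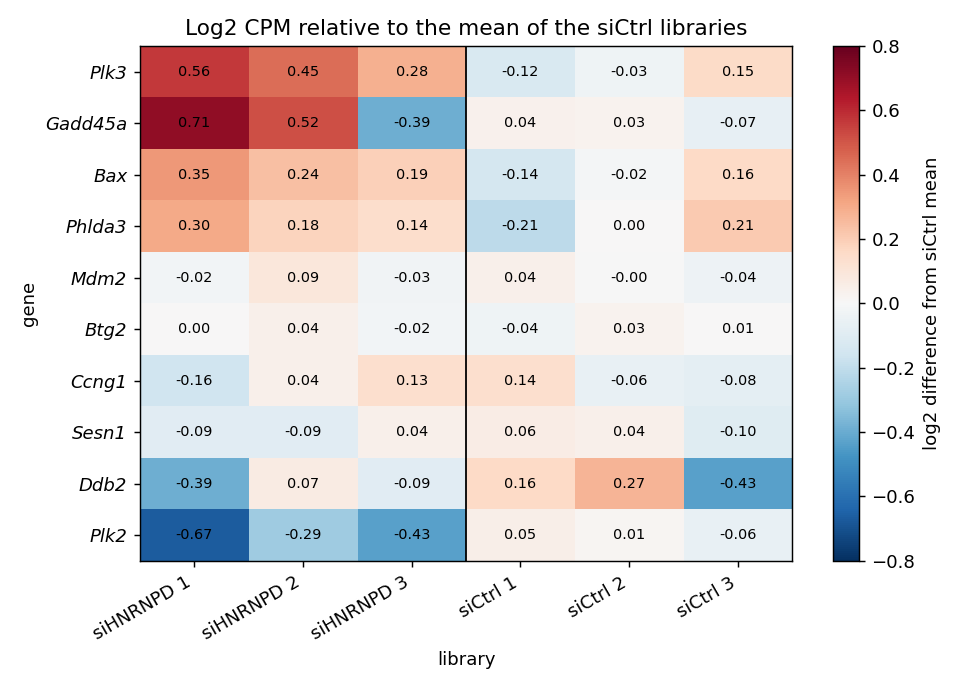
Log2 CPM of each gene (rows) in each library (columns) minus the mean of the 3 siCtrl libraries, in red where higher and blue where lower, with the value printed in each cell. Gadd45a is 0.71 and 0.52 in siHNRNPD 1 and 2 but -0.39 in siHNRNPD 3, and Mdm2 and Btg2 stay within 0.09 of 0 in all 6 libraries.

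The groups overlapped in the feedback and cell cycle members. Mdm2, the ubiquitin ligase that degrades p53, had 43.8, 47.3 and 43.6 CPM in siHNRNPD, against 45.8, 44.4 and 43.3 CPM in siCtrl, a log2 change of 0.013 with an SE of 0.067. Ccng1, the cyclin that brings a phosphatase to Mdm2, had 34.7, 39.9 and 42.6 CPM in siHNRNPD, against 42.6, 37.3 and 36.8 CPM in siCtrl, a log2 change of 0.0058 with an SE of 0.094. Its libraries ranged as widely within a group as between groups. Btg2, an antiproliferative protein that recruits the CCR4-NOT deadenylase, had 10.4, 10.8 and 10.3 CPM in siHNRNPD, against 10.2, 10.6 and 10.5 CPM in siCtrl. Its log2 change was 0.0070 (SE 0.097), and its within-group SD of log2 CPM, 0.034, was the smallest of the 10 genes.

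Sesn1 and Ddb2, which act in growth restraint and DNA repair, also overlapped between the groups. Sesn1, a sestrin that inhibits the growth kinase complex mTORC1, had 27.1, 27.1 and 29.7 CPM in siHNRNPD, against 30.1, 29.7 and 27.0 CPM in siCtrl, a log2 change of -0.047 with an SE of 0.078. Ddb2, a subunit of the complex that recognises ultraviolet damage, had 24, 32 and 28 counts in siHNRNPD, against 30, 35 and 24 counts in siCtrl. Its induction by p53 is known from human cells and was not found in mouse cells. At these counts, counting error alone is 18.6% of the Ddb2 level, against 1.74% for Bax, so its log2 change of -0.16 with an SE of 0.27 bounds little.

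All 10 genes passed the filter on low counts, 7 had a positive and 3 a negative log2 change, and their median was 0.0099, against 0.0054 over all 12268 tested genes, 51.7% of which were positive. At an adjusted p under 0.05, edgeR called 0 of the 10 genes, against 0.0815% of all tested genes (0.0245% higher and 0.0571% lower). An unadjusted p under 0.05 was found for 2 genes with a positive and 1 with a negative change, against 11.0% of all tested genes (5.84% higher and 5.20% lower). DESeq2 called Plk3 higher and Plk2 lower, against 1.41% of the genes it tested (0.480% higher and 0.934% lower). The groups did not overlap in 3 of the 10, Bax and Plk3 being higher and Plk2 lower, against 17.0% of all tested genes (8.42% higher and 8.57% lower). Because the contrast was known when the genes were chosen, nothing is read from these shares.

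The rest of the p53 network was taken from lists of 100 genes, of which 91 had a row, 9 of these were under the filter and 82 were tested. By edgeR 0 of these 82 genes were called, against 0.0815% of all genes, while an unadjusted p under 0.05 was found in 7 with a positive and 3 with a negative change, or 12.2% against 11.0% of all genes. DESeq2 called 4, 2 higher and 2 lower, against 1.41% of the genes it tested (0.480% higher and 0.934% lower). Among the 4 were Epha2 (higher), Thbs1 and Ei24 (lower). The median log2 change of the 82 genes was 0.013, with 44 positive. In 13 of them, or 15.9%, the groups did not overlap, against 17.0% of all genes.

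In the list of the p53 pathway's regulators, 19 tested genes had a median log2 change of -0.013. Mdm4, the partner of Mdm2 that masks the activation domain of p53, had 7.71 ± 0.27 CPM in siHNRNPD and 6.07 ± 0.69 CPM in siCtrl (SD, n = 3 each; log2 change 0.35; edgeR adjusted p = 0.352). Ppm1d, a phosphatase that switches p53 signalling off, had 22.5 ± 0.80 CPM in siHNRNPD and 25.5 ± 0.96 CPM in siCtrl (SD, n = 3 each; log2 change -0.18; edgeR adjusted p = 0.433).

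Other p53 targets in cell cycle arrest had a median of 0.011 over 9 tested genes. Cdkn1a, the cyclin-dependent kinase inhibitor p21 and the best known of p53 targets, had 140, 123 and 105 CPM in siHNRNPD, against 112, 120 and 129 CPM in siCtrl. The siHNRNPD libraries enclosed the siCtrl range on both sides, and the log2 change of 0.022 (SE 0.10; edgeR adjusted p = 0.961) turned to -0.082 without siHNRNPD 1, -0.038 without siCtrl 1 and -0.048 with depth as a covariate. Gdf15, a secreted stress cytokine, had 122, 67 and 13 counts in siHNRNPD, against 16, 25 and 34 counts in siCtrl. As in Gadd45a, siHNRNPD 1 and 2 lay above and siHNRNPD 3 below every siCtrl library (edgeR adjusted p = 0.443). Its log2 change of 1.35 was 0.65 without siHNRNPD 1 and 1.82 without siHNRNPD 3. It was 0.59 by limma on log2(FPKM + 1) and 0.89 on log2(FPKM + 0.1). Pml, which organises nuclear bodies, had 22.8, 20.9 and 13.6 CPM in siHNRNPD, against 22.9, 23.1 and 22.6 CPM in siCtrl, and Tp53inp1, a stress-induced nuclear protein, had 4.12 CPM in siHNRNPD and 3.53 CPM in siCtrl on average (edgeR adjusted p = 0.583 and 0.664).

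The 10 tested apoptosis targets had a median of 0.12, the highest of these lists. Their mean log2 CPM lay 0.22 and 0.11 from the siCtrl mean in siHNRNPD 1 and 2, but -0.027 in siHNRNPD 3. In 2 of the 10 the groups did not overlap, both lower in siHNRNPD, against 17.0% of all tested genes. Bid, which carries the death receptor signal to Bax, had 15.7, 14.6 and 10.7 CPM in siHNRNPD, against 8.55, 9.07 and 11.2 CPM in siCtrl (log2 change 0.51; edgeR adjusted p = 0.323), and siCtrl 3 lay above siHNRNPD 3. Ei24, a membrane protein of the endoplasmic reticulum, had 89.0 ± 2.27 CPM in siHNRNPD and 107 ± 2.57 CPM in siCtrl (SD, n = 3 each; log2 change -0.26; edgeR adjusted p = 0.201, DESeq2 adjusted p = 0.0435). Pmaip1, the BH3-only protein Noxa, had 51.8 ± 7.84 CPM in siHNRNPD and 45.0 ± 1.40 CPM in siCtrl (SD, n = 3 each; edgeR adjusted p = 0.498).

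DNA repair and nucleotide supply targets had a median of -0.030 over 11 tested genes, and Pcna, the sliding clamp of replication, had the smallest p among them (log2 change -0.16; edgeR adjusted p = 0.519). Fdxr, a mitochondrial reductase, had a log2 change of 0.15 (edgeR adjusted p = 0.673), which was 0.0067 without siHNRNPD 1 and 0.076 without siCtrl 1. Metabolism, redox and autophagy targets had a median of -0.0023 over 17 tested genes, and Epha2 and Thbs1, which DESeq2 called, were in this list. Epha2, a receptor tyrosine kinase, had 28.8 ± 2.13 CPM in siHNRNPD and 21.9 ± 1.33 CPM in siCtrl (SD, n = 3 each; log2 change 0.40; edgeR adjusted p = 0.171, DESeq2 adjusted p = 0.0217). Thbs1, the matrix protein thrombospondin, had 43.4, 42.6 and 61.8 CPM in siHNRNPD, against 78.3, 63.6 and 70.7 CPM in siCtrl (log2 change -0.52; edgeR adjusted p = 0.261, and 0.0456 without siHNRNPD 3). In Thbs1, siHNRNPD 3 was the siHNRNPD library nearest to siCtrl. The paralogs and partners of the members had a median of 0.034 over 20 tested genes, with Phlda1, a relative of Phlda3, at 35.0 ± 1.16 CPM in siHNRNPD and 32.3 ± 0.88 CPM in siCtrl (SD, n = 3 each; edgeR adjusted p = 0.557).

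**Figure D5:**
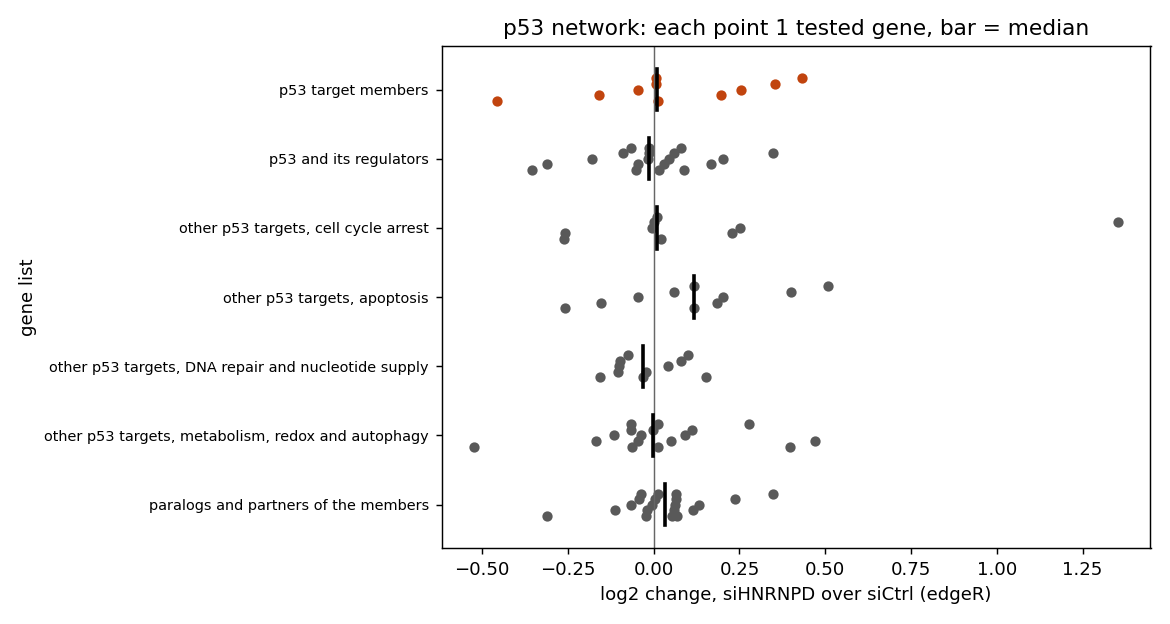
Log2 change, siHNRNPD over siCtrl, from edgeR (horizontal axis) of each tested gene, with 1 row per gene list, orange for the 10 p53 target genes, grey for the other lists and a black bar at each median. Medians lie between -0.030 and 0.12. The point farthest to the right is Gdf15 at 1.35, which was 0.65 without siHNRNPD 1 and 1.82 without siHNRNPD 3.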

How the data were processed

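RNA was sequenced by the authors as 150 nt paired ends and aligned to mRatBN7.2 with TopHat2, per the submitters' processing notes. How reads were assigned to genes, and whether by strand, is not stated there, so reads of overlapping or antisense partners may be mixed. The authors deposited whole-number read counts per gene for 18718 genes and FPKM values for 18628 genes. Columns were matched to samples by siRNA and replicate number, and 0 were left out.

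The count test was edgeR's quasi-likelihood test (version 4.0.16, R 4.3.3), with TMM scaling, filterByExpr and a single group term (Benjamini-Hochberg adjustment over 12268 genes, calls under 0.05). CPM are per library size after TMM scaling, and log2 CPM used a prior count of 2. Alternatives were DESeq2 1.42.0, RLE and upper-quartile scaling, other filters, a block for replicate number, omission of each library, limma 3.58.1 on log2(FPKM + 1) or log2(FPKM + 0.1), whose pseudocounts understate changes of low genes, and, added after the data were seen, depth as a covariate. All 15 library pairs differed by more than sampling noise. By chi-square per degree of freedom, siHNRNPD 2 was nearer to siCtrl 2 (15.5) and siCtrl 1 (19.0) than to siHNRNPD 1 (26.0) or 3 (30.4). Likewise siHNRNPD 1 was nearest to siCtrl 3 (21.7). Library siHNRNPD 3 and each siCtrl library were nearest to a library of their own group. The tests were checked on simulated counts with changes larger than those of the members, so changes of that size were not covered.

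The members and lists were chosen with earlier results of these data known. The text names every member, Hnrnpd, Mdm4, Cdkn1a, Plk1, Plk4, the up to 3 genes of smallest p in each list and the 3 genes (mean of at least 5 CPM) whose log2 CPM correlated best with Plk2 or Plk3. Some genes that this rule takes are not reported here. Promoters came from RefSeq (GRCr8). Of the lists' entries, 3 matched through synonyms and 9 network genes were unmatched.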

Additional observations from a re-analysis of the deposited data

How the results depend on the processing

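In all 16 alternatives Plk2 stayed lower (log2 change -0.55 to -0.36) and Plk3 (0.36 to 0.51), Bax (0.17 to 0.34), Gadd45a (0.13 to 0.61) and Phlda3 (0.087 to 0.31) higher, while Mdm2, Ccng1 and Btg2 moved to either side of 0. All alternatives draw on the same libraries and on the contrast by which the set was chosen, so signs that stay the same are no independent evidence. Among the members, DESeq2 called Plk3 and Plk2, against 1.41% of the genes it tested. With no filter edgeR called Plk3, against 147 of 18718 genes, and the other 14 alternatives called 0 members. Nothing is read from these calls, since the contrast was known when the members were chosen. Ddb2, at 24 to 35 counts, is limited by depth and was under 3 of the filters. The members' median log2 change was 0.0099, and -0.010 to 0.058 when 1 library was left out, and the number of positive members was 7, and 4 to 7 when 1 library was left out.

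Over all genes, edgeR called 10 genes, 3 higher and 7 lower. The counts were 162, 55 and 107 with DESeq2, 147, 46 and 101 with no filter, and 18, 7 and 11 with depth as a covariate. Upper-quartile scaling called 6 genes, 3 of them lower, and a minimum of 50 counts in 3 libraries gave 5 higher. Limma called 0 genes, 0 higher and 0 lower, on log2(FPKM + 1) with or without the filter, and 5, 1 and 4 on log2(FPKM + 0.1), while an unadjusted p under 0.05 was reached by 1157, 1604 and 1152 genes in that order. Leaving out 1 library gave 0 to 14 genes, 0 to 7 higher and 0 to 7 lower, and 0 without siCtrl 1, 2 or 3 (964, 724 and 1919 at an unadjusted p under 0.05). Of the 82 other network genes edgeR called 0, DESeq2 4 (2 higher and 2 lower), no filter 2 (1 higher and 1 lower), and leaving out 1 library 0 to 2 (0 to 1 in each direction), the highest without siHNRNPD 3. Hnrnpd stayed lower throughout, at a log2 change of -0.74 to -0.62. The sign turned in Cdkn1a without siHNRNPD 1 (-0.082), without siCtrl 1 (-0.038) and with depth as a covariate (-0.048), its range with 1 library left out being -0.082 to 0.11, and in Plk4 without siHNRNPD 3 (-0.031). The causes were not tested.

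With the replicate block edgeR called 0 genes, 0 higher and 0 lower, with 1062 at an unadjusted p under 0.05, and 0 of the other network genes. The numbers share no stated origin: deviations of same-numbered libraries correlated at -0.26, 0.14 and 0.10, and not every library correlated best with its own number.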

Other observations

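Several further p53 network genes kept the order of library depth within both groups, as Bax, Phlda3 and Plk3 did: 13 of the 82 tested, or 15.9%, against 6.96% of all tested genes. Among them were Bak1, Bid, Ccnk, Cd82, Cdkn1a, Ddit4, Fdxr, Gdf15, Gls2, Mgmt, Rpl11 and Sesn2. Fdxr, a mitochondrial reductase, had 37.9, 29.2 and 28.3 CPM in siHNRNPD 1 to 3, against 26.0, 28.8 and 31.0 CPM in siCtrl 1 to 3. The order runs opposite in the numbering of the groups, since siHNRNPD 1 and siCtrl 3 were the deepest libraries. The reverse order was found in 6 of the 82 genes, or 7.32%, against 5.74% of all tested genes: Atr, Ppm1d, Rchy1, Rfwd2, Sirt1 and Xpc. This pattern was noticed in the data after the values were seen, and depth cannot be told apart from any other property that these libraries share.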
